A study of Mus musculus with 12 samples.

Results

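The genes described are 10 protein-coding genes of 1 stretch of mouse chromosome 4, listed by name around Rnf186: Myom3, E2f2, Asap3, Ephb2, Alpl, Ubxn10, Pla2g2c, Pla2g5, Rnf186 and Tmco4, in that order along the chromosome. Rnf186 was picked because its counts were higher in disease than in controls and higher again with treatment, so it was chosen by measured values, its level in NC, DN and DN+NaB, and its neighbours were listed with their own values known. The deposited table held 46095 gene symbols, of which 17530 passed the filter on low counts and were tested. All 10 genes were in the table and all 10 passed.

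RNA was sequenced from renal cortex of C57BL/6 mice aged 12 weeks. There were 4 libraries each from normal controls (NC), from mice with diabetic nephropathy, the kidney disease of diabetes (DN), and from such mice that also received sodium butyrate (DN+NaB), the salt of a short-chain fatty acid that inhibits histone deacetylases. How diabetes was induced, and the dose, route and length of butyrate treatment, are not in the labels. Which animal gave which library is not labelled, so p-values and errors cover the spread between these samples, which may be technical.

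Rnf186 encodes a RING finger E3 ubiquitin ligase held in the membrane of the endoplasmic reticulum and known from epithelia of the gut and kidney. E3 ligases attach ubiquitin to chosen proteins and so mark them for degradation or for a new role. Pla2g5 and Pla2g2c encode secreted phospholipases A2, enzymes that release fatty acids and lysophospholipids from membrane phospholipids, and several genes of that family stand side by side in this stretch. In the kidney the stretch also holds Alpl, the tissue-nonspecific alkaline phosphatase of the tubular brush border.

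The promoters of Rnf186 and Pla2g5 are shown because, of the 10 listed genes, these were the ones whose libraries lay in the order NC, DN, DN+NaB from low to high without overlap. Each line gives the 250 bases before a transcription start in RefSeq on GRCm38.p6, read 5′ to 3′ on the gene's strand. The window of Rnf186 is chr4:138966869-138967118 on the plus strand, and its capitals mark a 13-letter match to the HNF1 motif. Pla2g5 has a pair of starts in RefSeq. The upstream window is chr4:138863470-138863719 and the downstream window chr4:138819258-138819507, both on the minus strand, and capitals mark each copy of a repeated unit.
Rnf186: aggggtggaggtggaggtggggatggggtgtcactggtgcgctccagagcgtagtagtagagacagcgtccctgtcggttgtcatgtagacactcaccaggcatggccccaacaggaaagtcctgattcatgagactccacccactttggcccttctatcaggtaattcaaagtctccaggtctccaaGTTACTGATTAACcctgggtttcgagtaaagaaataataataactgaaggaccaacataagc
Pla2g5, upstream start: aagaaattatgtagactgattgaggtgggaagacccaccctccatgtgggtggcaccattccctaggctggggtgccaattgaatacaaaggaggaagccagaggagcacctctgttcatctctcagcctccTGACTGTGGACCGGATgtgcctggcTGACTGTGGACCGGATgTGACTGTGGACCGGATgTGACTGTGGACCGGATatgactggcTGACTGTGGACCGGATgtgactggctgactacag
Pla2g5, downstream start: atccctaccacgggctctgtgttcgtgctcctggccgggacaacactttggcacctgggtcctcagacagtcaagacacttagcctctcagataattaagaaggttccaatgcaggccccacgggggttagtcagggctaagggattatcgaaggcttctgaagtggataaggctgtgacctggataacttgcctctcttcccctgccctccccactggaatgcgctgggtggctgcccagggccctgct

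The HNF1 motif was searched on both strands, with at most 1 mismatch, as the half-site GTTAAT, any base, and the reverse complement ATTAAC. HNF1 factors are transcription factors of liver and kidney tubule. The match before Rnf186 began 62 bases before the start and differed from the motif by A5C, counted from 1 at the motif's 5′ end, with the motif's base first. Windows from 250 bases before to 50 after a start, taken for every start in the RefSeq table, held such a match in 68 of 32851 cases (0.207%), and in 1 of the 17 windows of the 10 genes. The 16-letter unit TGACTGTGGACCGGAT, the longest found 5 times in the window, stood 5 times before the upstream start of Pla2g5 and 0 times before its downstream start, and 1 of the 32851 windows held it more than once. Among other motifs searched on both strands without mismatch, the HNF4 motif CAAAGTCCA was in 0 of the 17 windows (0.475% of all windows) and the E2F motif TTTCCCGC in 0 (1.07%). The other E2F motif, TTTGGCGC, was in 1, that of E2f2 itself (0.514%), and TATAAA was in 1, that of Alpl (13.6%). The motifs and the repeat were chosen after the letters had been seen, and a match describes letters only.

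Counts per library ran from 58394975 to 70674015. Kidney genes were abundant in every library, with 547305 to 852758 counts for Lrp2 and 165229 to 481314 for Umod. The labels call the tissue renal cortex, whereas their extraction text speaks of prefrontal cortex. Of genes of brain cells, Snap25 and Mog were at 0 counts throughout (a 0 allows up to 3 counts in a library). Slc17a7 had 0 to 2 counts, Gfap 2 to 41, and the myelin gene Mbp 942 to 1501. Syt1, Rbfox3 and Gad1, also genes of brain cells, passed the filter on low counts. They had 1 to 15, 2 to 28 and 1 to 21 counts per library. On the second principal component (13.8% of the variance of the 500 most variable genes) DN replicate 4 lay at -39.7 and the remaining libraries between -10.4 and 23.4, so the differences of the 10 genes that involve DN are given below with and without it. In bulk tissue, fewer cells of a type and less RNA per cell cannot be told apart.

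Rnf186 was expressed in every library. Its level in CPM, which are counts scaled by library size with TMM factors, was 16.7, 21.2, 23.5 and 15.7 in NC replicates 1 to 4. In DN it was 33.1, 39.0, 36.9 and 39.5 CPM, and in DN+NaB 89.4, 82.4, 60.6 and 79.6 CPM. Every DN library lay above every NC library, and every DN+NaB library lay above every DN library. The DN replicate that stood apart overall did not stand apart for Rnf186. The means were 19.3 ± 3.72 CPM in NC, 37.1 ± 2.91 with DN and 78.0 ± 12.3 with DN+NaB (SD, n = 4 each).

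The log2 fold change of Rnf186 was 0.95 ± 0.15 (SE) from NC to DN and 1.07 ± 0.15 from DN to DN+NaB. From NC to DN+NaB it was 2.02 ± 0.15. Without DN replicate 4 these were 0.89, 1.10 and 2.0. Both steps use the same DN libraries, so their values are not independent of each other. Since these contrasts chose the gene, no p-value is given for it or for its listed neighbours, here or below. The call rule was an adjusted p under 0.05 in edgeR's quasi-likelihood test, Benjamini-Hochberg adjusted over all tested genes. By it, 2 of 17530 genes were called higher from DN to DN+NaB. Rnf186 was the 1 gene called higher in both steps, which restates how it was chosen. The call from DN to DN+NaB was lost under 9 of 19 alternatives, among them the fit of these 2 groups alone and the fits without NC replicate 1 or 2, DN replicate 1 or 2, or DN+NaB replicate 1, 2 or 4. Its log2 fold change in that step was 1.0 to 1.17 over the alternatives.

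Pla2g5 encodes the group V secreted phospholipase A2. It was at 11.0, 13.3, 14.5 and 11.9 CPM in NC replicates 1 to 4 and at 32.6, 40.8, 44.4 and 21.2 CPM in DN. In DN+NaB it was at 72.2, 77.1, 78.7 and 73.3 CPM. The groups of Pla2g5 did not overlap at either step. DN replicate 4 was the lowest of its group, and the DN+NaB libraries lay close together, with an SD of 3.05 around a mean of 75.3 CPM, against 34.8 ± 10.3 in DN and 12.7 ± 1.54 in NC. The log2 fold change of Pla2g5 was 1.45 ± 0.18 from NC to DN and 1.12 ± 0.18 from DN to DN+NaB. From NC to DN+NaB it was 2.57 ± 0.19. Without DN replicate 4 these were 1.61, 0.95 and 2.55. The second step was not called with all libraries, whereas 8 of 19 alternatives called it, including the fits without DN replicate 3 (1.26) or DN replicate 4. Over all tested genes, 36 of 17530 (0.205%) had libraries in the order NC, DN, DN+NaB without overlap, and Rnf186 and Pla2g5 were among them.

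**Figure D1:**
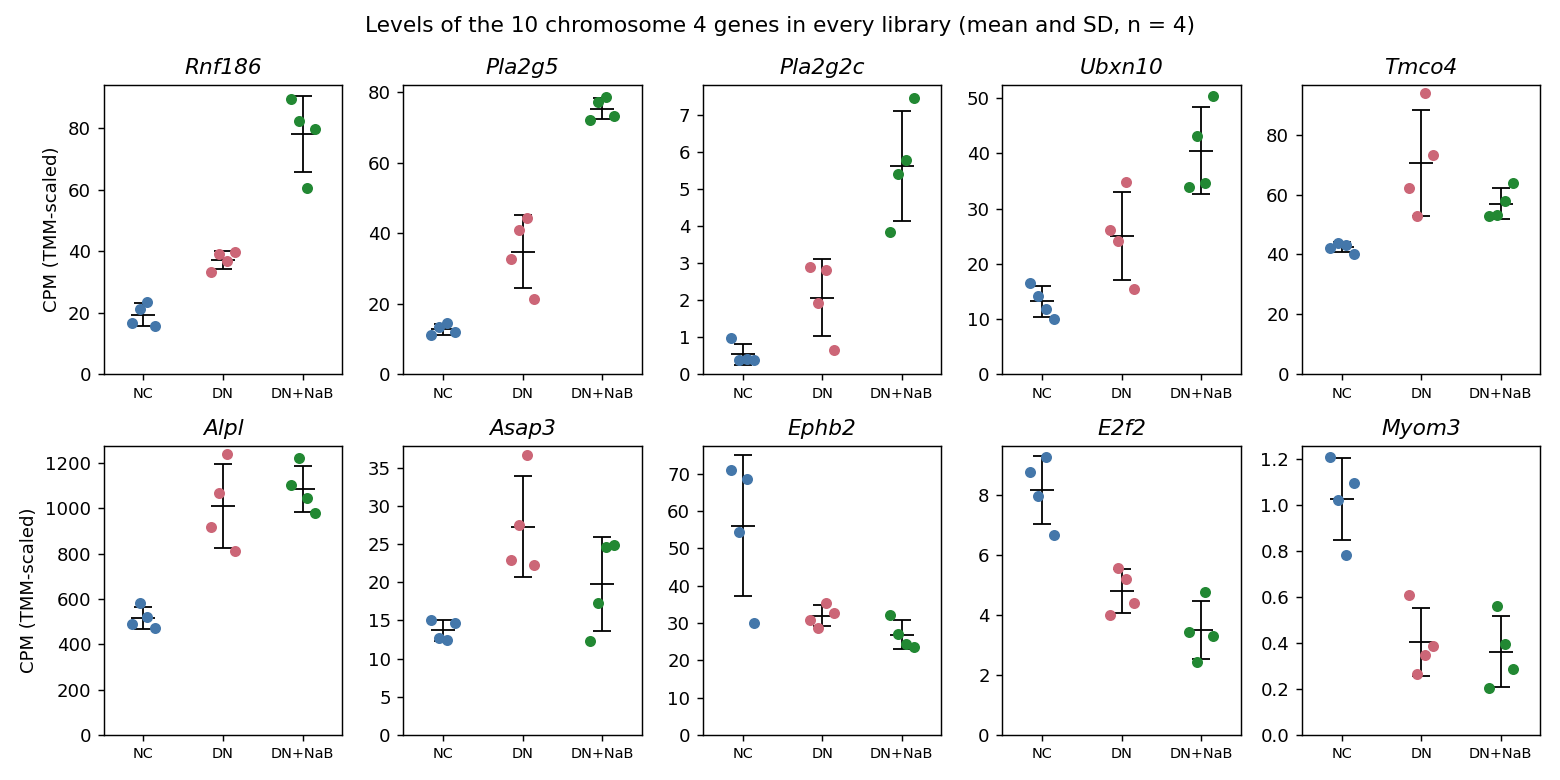
Level of each of the 10 genes (vertical axis, TMM-scaled CPM from 0) in every library, with NC, DN and DN+NaB on the horizontal axis. Points are libraries, and bars give the mean and SD (n = 4). Rnf186 and Pla2g5 were higher at each step without overlap, whereas Tmco4 and Asap3 had their highest mean in DN.

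Pla2g2c, the group IIC secreted phospholipase A2, was a low-level gene in controls. It was at 0.964, 0.371, 0.407 and 0.388 CPM in NC, which is 24 to 63 counts. In DN it was at 2.88, 1.92, 2.80 and 0.646 CPM, and in DN+NaB at 3.83, 5.40, 5.78 and 7.45 CPM. DN replicate 4 lay below NC replicate 1, so NC and DN overlapped, whereas all DN+NaB libraries lay above all DN libraries. Its log2 fold change was 1.95 ± 0.44 from NC to DN, 1.44 ± 0.42 from DN to DN+NaB and 3.40 ± 0.46 from NC to DN+NaB. Without DN replicate 4 these were 2.23, 1.16 and 3.38. The call from NC to DN was lost without NC replicate 2 (1.81) or NC replicate 3 (1.84).

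Ubxn10 encodes a UBX domain protein that recruits the ATPase p97 and takes part in building cilia. Its level was 16.5, 14.2, 11.9 and 10.1 CPM in NC, 26.1, 24.1, 34.8 and 15.4 with DN, and 33.9, 43.2, 34.6 and 50.4 with DN+NaB. DN replicate 4 again lay within the NC range, and DN replicate 3 within the DN+NaB range. Log2 fold changes were 0.93 ± 0.23 from NC to DN, 0.69 ± 0.22 from DN to DN+NaB and 1.62 ± 0.23 from NC to DN+NaB, and 1.08, 0.53 and 1.61 without DN replicate 4. The call from NC to DN was lost without NC replicate 3 (0.88), NC replicate 4 (0.80) or DN replicate 3 (0.73).

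Ubxn10 and Pla2g2c lie next to each other on opposite strands and share 217 exon bases in GENCODE M21, 4.75% of the exon bases of Ubxn10 and 6.01% of those of Pla2g2c. Whether counting used strand is not given in the sources used here, so reads from the shared bases could have gone to either gene. In NC, Ubxn10 averaged 13.2 CPM and Pla2g2c 0.533. A small part of the Ubxn10 reads could therefore be a large part of the Pla2g2c counts. The part of such reads in the levels, fold changes and share of Pla2g2c was not tested. Of the summed CPM of the pair, Pla2g2c made up 3.77% in NC libraries on average (2.54 to 5.52%). Its share was 7.20% in DN (4.02 to 9.96%) and 12.1% in DN+NaB (10.1 to 14.3%). The share in every DN+NaB library lay above that in every DN library.

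Tmco4, a transmembrane and coiled-coil protein gene next to Rnf186 on the other side, did not follow it from DN to DN+NaB. It was at 42.1, 44.0, 43.1 and 40.1 CPM in NC, 62.3, 52.9, 94.0 and 73.4 with DN, and 52.8, 53.3, 57.8 and 63.8 with DN+NaB. All libraries of both diabetic groups lay above all NC libraries, and the diabetic groups overlapped. For Tmco4 the log2 fold change was 0.74 ± 0.15 from NC to DN and -0.31 ± 0.15 from DN to DN+NaB, and 0.69 and -0.28 without DN replicate 4. From NC to DN+NaB it was 0.43 ± 0.15, which was not called with all libraries and was called under 4 of 19 alternatives, 2 of them the fits without DN replicate 2 or DN replicate 3.

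Alpl was the most abundant of the 10 genes. It was at 488, 581, 519 and 473 CPM in NC, at 916, 1069.8, 1238 and 813 in DN, and at 1102, 1221, 1046 and 982 in DN+NaB. Both diabetic groups lay wholly above NC and overlapped each other. For Alpl the log2 fold change was 0.97 ± 0.14 from NC to DN and 0.11 ± 0.13 from DN to DN+NaB, and 1.04 and 0.02 without DN replicate 4. From NC to DN+NaB it was 1.08 ± 0.14, and 1.06 without that library. Every alternative kept the call of Alpl in DN against NC.

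Asap3 encodes a GTPase-activating protein of the Arf family of small GTPases. It was at 15.1, 12.7, 12.4 and 14.7 CPM in NC, at 22.9, 27.4, 36.7 and 22.2 in DN, and at 12.3, 17.3, 24.6 and 24.9 in DN+NaB. DN lay wholly above NC, whereas the DN+NaB libraries spread from just below the lowest NC value to within the DN range. For Asap3 the log2 fold change was 0.99 ± 0.22 from NC to DN and -0.47 ± 0.22 from DN to DN+NaB, and 1.06 and -0.54 without DN replicate 4. From NC to DN+NaB it was 0.53 ± 0.22 and was not called, but without DN+NaB replicate 1 it was 0.70 and called.

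The other 3 genes were lower in diabetic than in control cortex. Ephb2 encodes a receptor tyrosine kinase for ephrin-B ligands, which guides cell positioning. It was at 71.05, 54.3, 68.7 and 30.0 CPM in NC, at 30.7, 28.7, 35.4 and 32.8 in DN, and at 32.1, 27.1, 24.4 and 23.5 in DN+NaB. NC replicate 4 lay within the DN range, and the other NC libraries lay above all diabetic ones. For Ephb2 the log2 fold change was -0.81 ± 0.21 from NC to DN, -0.25 ± 0.21 from DN to DN+NaB and -1.06 ± 0.21 from NC to DN+NaB, and -0.84, -0.24 and -1.08 without DN replicate 4. The call in DN against NC was lost in the fit of the 2 groups alone and without NC replicate 1, 2 or 3 or DN replicate 1 or 2, at -0.83 to -0.68.

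E2f2, a transcription factor that turns on genes of DNA replication, was at 8.77, 7.97, 9.26 and 6.67 CPM in NC. It was at 3.98, 5.58, 5.21 and 4.39 CPM in DN and at 3.44, 2.43, 4.77 and 3.29 in DN+NaB. Both diabetic groups lay wholly below NC and overlapped each other. For E2f2 the log2 fold change was -0.77 ± 0.21 from NC to DN, -0.46 ± 0.21 from DN to DN+NaB and -1.23 ± 0.21 from NC to DN+NaB, and -0.75, -0.49 and -1.24 without DN replicate 4. The call in DN against NC was lost without NC replicate 1 (-0.74), 2 (-0.79) or 3 (-0.71) or DN replicate 1 (-0.69).

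Myom3, the gene of a myomesin that crosslinks thick filaments in the M band of striated muscle, had the fewest counts of the 10 in the diabetic groups. It was at 1.21, 1.02, 0.783 and 1.10 CPM in NC, at 0.611, 0.264, 0.348 and 0.387 in DN, and at 0.204, 0.563, 0.395 and 0.287 in DN+NaB. These are 52 to 79 counts in NC libraries, 15 to 39 with DN, and 12 to 34 with butyrate. Both diabetic groups lay wholly below NC. The log2 fold change was -1.34 ± 0.37 from NC to DN, -0.15 ± 0.38 from DN to DN+NaB and -1.5 ± 0.38 from NC to DN+NaB, and -1.34, -0.17 and -1.51 without DN replicate 4. Its call in DN against NC held under 8 of 18 alternatives, and was lost without any of NC replicates 1 to 4, DN replicates 2 to 4 or DN+NaB replicate 3, at -1.46 to -1.19. The call in DN+NaB against NC was lost without DN+NaB replicate 4 (-1.40). The sum of 10 skeletal muscle markers was between 1.69 and 2.05 CPM in NC, 1.27 and 2.13 with DN, and 1.18 and 1.75 with DN+NaB, with Myh4 and Myl1 at 0 counts in all libraries. The part of muscle RNA in the Myom3 values was not tested.

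Counted together, 10 of the 10 genes were called in DN against NC, where 8.23% of all tested genes were called. Of these, 7 were higher (3.82% of all tested genes) and 3 lower (4.42%). From DN to DN+NaB 1 of the 10 was called, Rnf186, where 0.0228% of all tested genes (4 of 17530) were called, 0.0114% in each direction. Between NC and DN+NaB 8 of the 10 were called, against 15.6% of all tested genes, 5 of them higher (6.62%) and 3 lower (8.94%). The libraries of NC and DN did not overlap for 7 of the 10 (13.3% of all tested genes), 5 higher (5.86%) and 2 lower (7.49%). Those of DN and DN+NaB did not overlap for 3 of the 10 (4.56%), 3 higher (2.13%) and 0 lower (2.44%). Those of NC and DN+NaB did not overlap for 8 of the 10 (27.9%), 6 higher (14.0%) and 2 lower (13.9%). The genes were listed with these values known, so the counts describe the list and nothing is read from them. Leaving out each library in turn called 5 to 10 of the 10 in DN against NC, lowest without NC replicate 3, 0 to 2 from DN to DN+NaB, and 7 to 9 in DN+NaB against NC.

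The order of the genes by level differed between the groups. Levels of different genes were set side by side per kilobase of merged GENCODE M21 exons. In NC, Alpl was at 128 ± 11.8 CPM per kb, Rnf186 at 15.4 ± 2.98 and Tmco4 at 11.8 ± 0.465, with no overlap between neighbours in that order. Below them came Ephb2 (4.44 ± 1.5 CPM per kb) and Pla2g5 (4.40 ± 0.534), which overlapped, then Asap3 (3.24 ± 0.324) and Ubxn10 (2.89 ± 0.616), which overlapped as well. E2f2 was at 1.67 ± 0.232 CPM per kb, and Myom3 (0.170 ± 0.0299) and Pla2g2c (0.147 ± 0.0798) were lowest and overlapped. In DN+NaB the order was Alpl at 270 ± 25.2 CPM per kb, Rnf186 at 62.4 ± 9.87, Pla2g5 at 26.1 ± 1.06, Tmco4 at 15.8 ± 1.42 and Ubxn10 at 8.88 ± 1.71, with no overlap between neighbours. Pla2g5 stood below Tmco4 in NC and above it in DN+NaB, without overlap in either group.

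Along the chromosome, higher and lower genes were interleaved with many that were not called. RefSeq lists 102 genes from Myom3 to Tmco4, and 37 genes other than the 10 were tested. Their median log2 fold change was 0.01 in DN against NC, 0.06 from DN to DN+NaB and 0.04 in DN+NaB against NC, where the median of all tested genes was 0.01, -0.02 and -0.01. Of the 37, edgeR's quasi-likelihood test called 1 higher and 1 lower in DN against NC (5.41%, against 8.23% of all tested genes). It called 0 from DN to DN+NaB (0.0228% of all tested genes), where 5 had an unadjusted p under 0.05 and DESeq2 called 1. For DN+NaB against NC edgeR called 5 higher and 6 lower (29.7%, against 15.6% of all tested genes). Among the 20 genes that flank the stretch, 10 on either side, 1 was called in DN against NC (Ubr4, 0.37 with an adjusted p of 0.0478, lost under 13 of 19 alternatives, 10 of them without 1 library). In those 20, 0 were called from DN to DN+NaB (1 at an unadjusted p under 0.05 and 0 by DESeq2). In DN+NaB against NC 2 were called (10.0%, against 15.6% of all tested genes). Rcan3 rose by 0.37 (edgeR adjusted p = 0.0201, lost under 7 of 19 alternatives, 5 of them without 1 library). Aldh4a1 rose by 0.52 (edgeR adjusted p = 0.0496, lost under 11 of 19, 10 of them without 1 library).

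**Figure D2:**
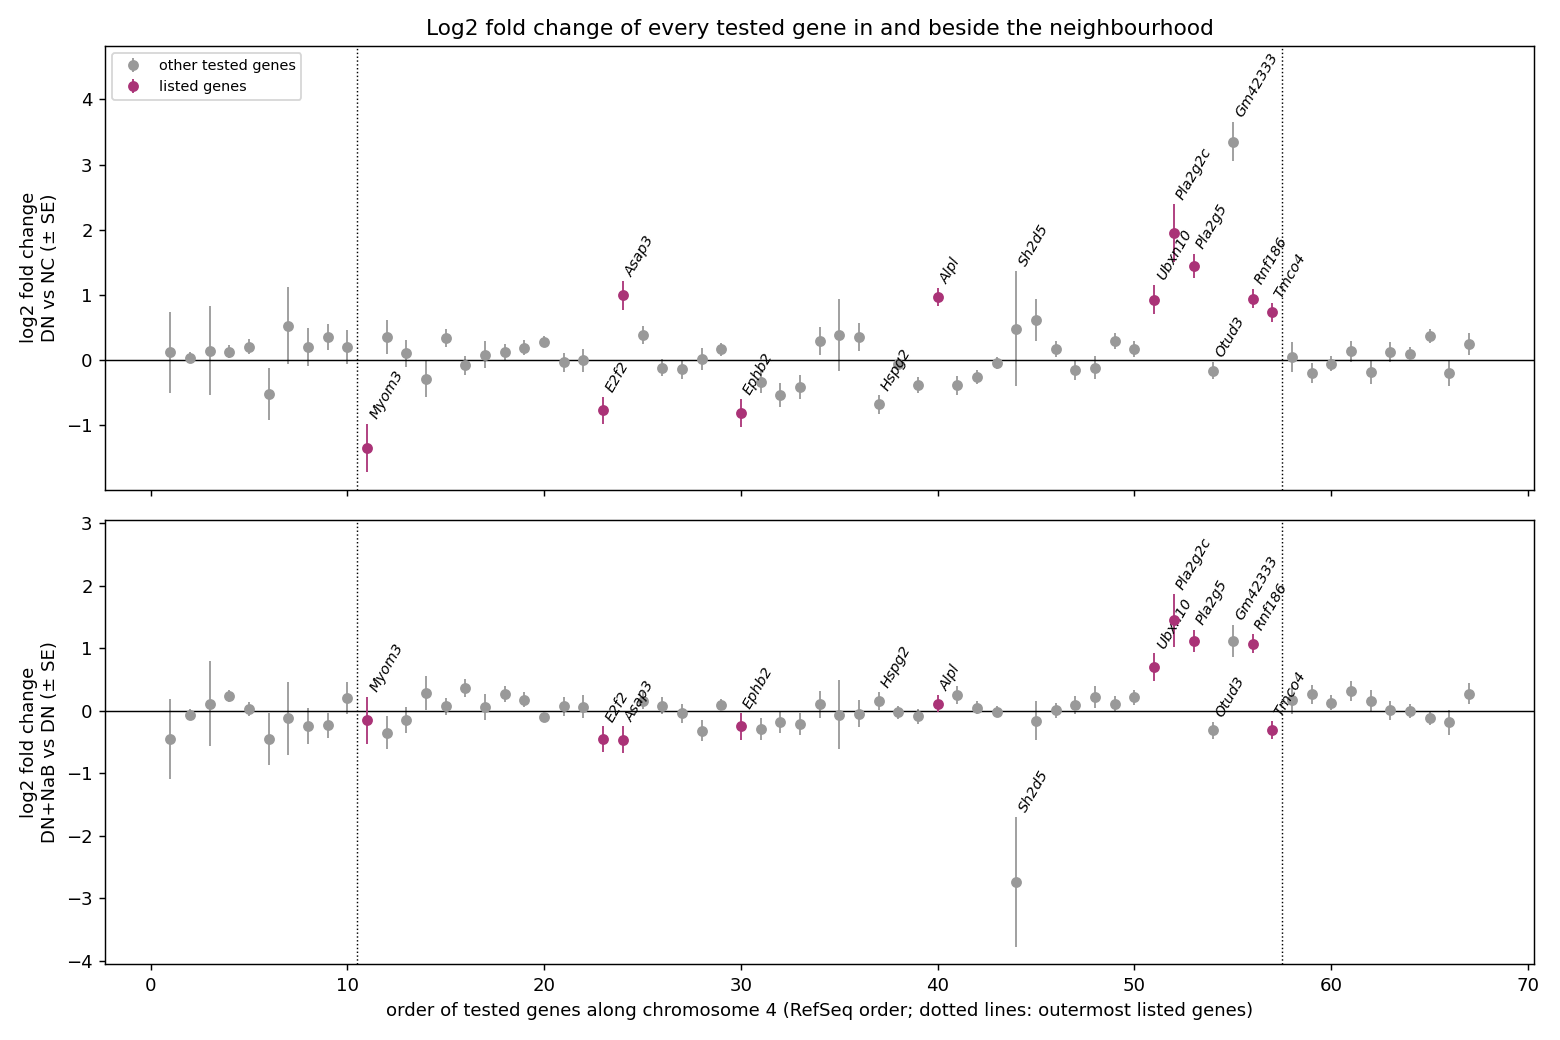
Log2 fold change with its SE (vertical axes) of the tested genes of the stretch and of 10 on either side, in RefSeq order along chromosome 4 (horizontal axis), for DN against NC above and DN+NaB against DN below. Listed genes are in purple and others in grey. In both panels Ubxn10, Pla2g2c, Pla2g5, Gm42333 and Rnf186 lie above 0, Otud3, placed between Pla2g5 and Gm42333, lies below 0, and Sh2d5, a gene with few counts, has the widest bar of the lower panel.

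The gene between Pla2g5 and Rnf186 that was called in DN against NC was Gm42333, a long non-coding RNA in RefSeq. GENCODE M21 held no exons under that name, so whether Gm42333 shares exon bases with its neighbours was not tested. The NC libraries held 5 to 13 of its counts, those of DN 76 to 121 and those of DN+NaB 155 to 232, with no overlap between groups. In CPM it was at 0.142 ± 0.0525, 1.46 ± 0.292 and 3.18 ± 0.496 (SD, n = 4 each). Gm42333 rose by 3.35 ± 0.30 on the log2 scale from NC to DN, a call by edgeR that none of 19 alternatives lost. It passed the filter only through the diabetic groups, where it was higher, so its calls are not used as support. From DN to DN+NaB its log2 fold change was 1.12 ± 0.26 with an adjusted p of 0.130 by edgeR. DESeq2 called it and the other 18 alternatives did not. The other tested gene between Pla2g5 and Rnf186 was Otud3, a deubiquitinase gene. Otud3 was at 31.1 ± 5.69 CPM in NC, 27.8 ± 0.921 with DN and 22.4 ± 2.68 with DN+NaB, and its DN and DN+NaB libraries did not overlap. Its log2 fold change was -0.16 ± 0.14 from NC to DN (edgeR adjusted p = 0.557) and -0.31 ± 0.14 from DN to DN+NaB (0.475). From NC to DN+NaB Otud3 fell by 0.47 ± 0.14 on the log2 scale (edgeR adjusted p = 0.0308). That call was lost under 5 of 19 alternatives, those without NC replicate 1, 2 or 3 or DN+NaB replicate 3 or 4.

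**Figure D3:**
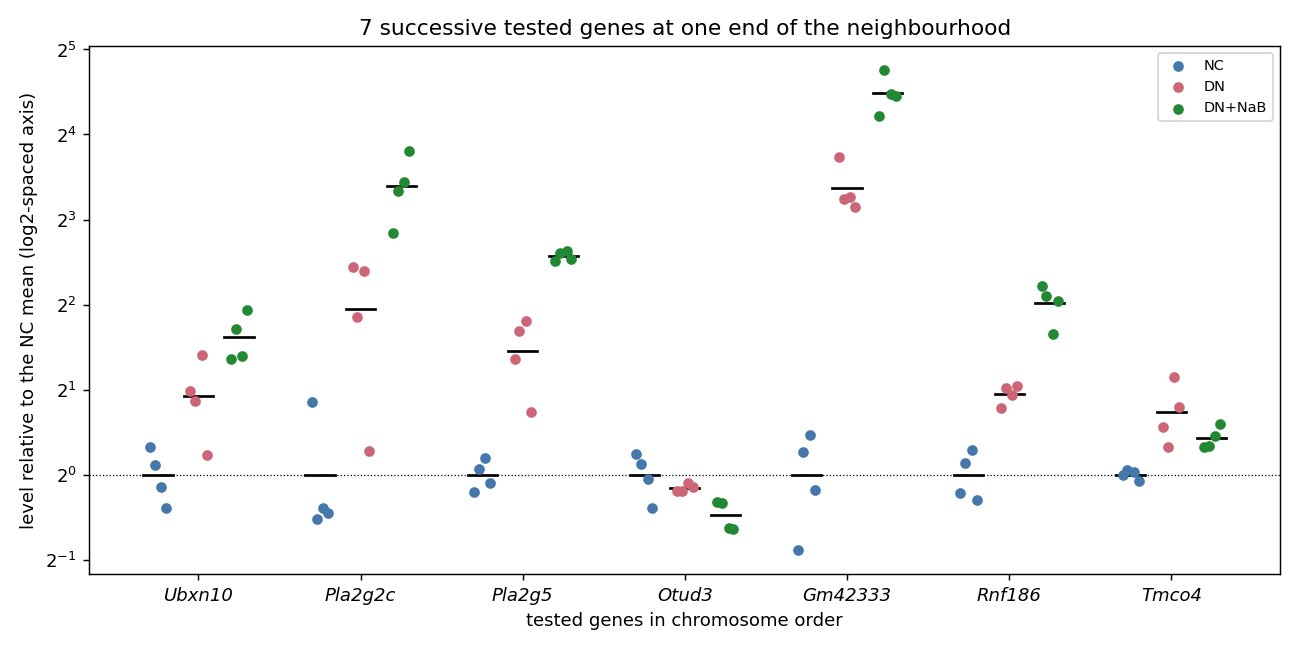
Level of 7 successive tested genes relative to the mean of NC (vertical axis, spaced by log2) in every library, in chromosome order (horizontal axis). Points are libraries and lines are group means. Otud3, between Pla2g5 and Gm42333, has its lowest mean in DN+NaB, whereas 5 of the other 6 genes have their highest mean in DN+NaB.

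A further 3 secreted phospholipase A2 genes of the stretch, and Pla2g2a, which RefSeq lists as a transcribed pseudogene, had too few counts to be tested. Over the 12 libraries Pla2g2d had 0 to 9 counts, Pla2g2e 0 to 6, Pla2g2a 0 to 1 and Pla2g2f 0, which allows up to 3 counts in each library. Among secreted phospholipase A2 genes of the stretch, Pla2g2c and Pla2g5 were those that passed the filter. Farther along, Hspg2, the gene of the basement membrane proteoglycan perlecan, fell by 0.68 ± 0.14 on the log2 scale in DN against NC (491 ± 14.97 to 307 ± 59.4 CPM, edgeR adjusted p = 0.00858), and no alternative lost that call. In DN+NaB against NC the 3 adjoining complement genes C1qa, C1qb and C1qc, which macrophages express, fell by 0.62, 0.62 and 0.71, with 7, 5 and 2 of 19 alternatives losing the edgeR call. Leaving out NC replicate 1 or DN+NaB replicate 2 lost it for all 3 genes, NC replicate 3, DN+NaB replicate 1 or DN+NaB replicate 3 for C1qa and C1qb, and NC replicate 2 for C1qa. Also in DN+NaB against NC, Tcea3 rose by 0.55 (edgeR adjusted p = 0.0137, lost under no alternative). Lypla2, Mul1 and Camk2n1 rose by 0.39, 0.40 and 0.38, calls each lost under 12 of 19 alternatives, 10, 10 and 9 of them without 1 library. Rap1gap fell by 0.47 (edgeR adjusted p = 0.0185, lost under 4 of 19, all without 1 library).

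Over the 12 libraries the genes differed in how closely they followed Rnf186. Pearson's r of log2 CPM with Rnf186 was 0.95 for Pla2g5, 0.93 for Gm42333, 0.87 for Ubxn10, and 0.85 for both Alpl and Pla2g2c. It was 0.47 for Tmco4, which adjoins Rnf186, and 0.29 for Asap3. It was -0.68 for Ephb2, -0.82 for Myom3 and -0.88 for E2f2. The adjoining pair Ubxn10 and Pla2g2c had an r of 0.97 with each other, and the part of reads from their shared exon bases in it was not tested. These values describe 12 points that fall into 3 groups and share each library's depth.

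Among named genes of the whole table, those most like Rnf186 were Kcnip2 (r = 0.97), Abcc4 (0.96), Gtf3c1 (0.95), Pla2g5 and Plekhf1 (0.95). Pla2g5 ranked number 5 of all 17529 other tested genes once predicted genes were included. Rnf186 was chosen by its steps in these libraries and Pla2g5 was listed with its values known, so nothing is read from that rank. Abcc4, an efflux transporter, was at 143 ± 24.2 CPM in NC, 328 ± 38.5 with DN and 530 ± 117 with DN+NaB. Kcnip2, a subunit of potassium channels, was at 2.35 ± 0.177, 5.62 ± 1.03 and 10.4 ± 2.38 CPM. Those least like it were Etv6 (-0.96), Lrmp (-0.96), Esr1 (-0.95), Tmtc4 (-0.95) and Pank1 (-0.95). Esr1, the estrogen receptor alpha gene, was at 31.1 ± 5.56 CPM in NC, 19.6 ± 4.65 with DN and 11.5 ± 1.43 with DN+NaB.

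Tested relatives and pathway partners of the 10 genes all lay outside the stretch and its flanks, and they are counted without the 10 themselves. For these lists and those below, the shares over all tested genes were 3.82% called higher and 4.42% called lower in DN against NC. In DN+NaB against NC the shares were 6.62% and 8.94%, and from DN to DN+NaB 0.0114% in each direction. From DN to DN+NaB, 0 genes of the 9 lists were called by edgeR or by DESeq2, and 0 to 3 genes of a list had an unadjusted p under 0.05. Of 7 tested relatives and partners of Rnf186, 1 rose in DN against NC, with a list median of 0.26. It was Rnf183, a relative of Rnf186 in the same RING finger subfamily, at 33.1 ± 7.04 CPM in NC, 57.0 ± 16.2 with DN and 68.5 ± 8.41 with DN+NaB. Its log2 fold change was 0.78 ± 0.19 in DN (edgeR adjusted p = 0.0206, lost without NC replicate 1 or NC replicate 4) and 1.05 ± 0.19 in DN+NaB against NC (0.00223).

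Of 17 tested phospholipases A2, their receptor and eicosanoid enzymes, 2 rose and 0 fell in DN against NC, with a list median of 0.24. Ltc4s, the leukotriene C4 synthase, rose by 0.75 ± 0.19 (edgeR adjusted p = 0.0251, lost in the fit of the 2 groups alone and without NC replicate 2, 3 or 4 or DN replicate 1, 2 or 3). Alox15, a lipoxygenase, had 0 counts in every NC library, 2 to 57 counts in DN (0.405 ± 0.413 CPM) and 2 to 22 in DN+NaB. It passed the filter only through the diabetic groups, where it was higher, so its calls are not used as support. Of the 17 alternatives that tested it, the fit without NC replicate 1 lost the call in DN against NC. With NC as reference, 3 rose and 2 fell in DN+NaB, at a median of 0.21. Alox15 was among those that rose, a call lost under 7 of 17 alternatives.

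E2f2 belongs to a family of factors that act with pocket proteins on genes of DNA replication and the cell cycle. Of 12 tested E2F factors, partners and pocket proteins, 1 rose and 1 fell in DN against NC, at a median of -0.01. E2f7, a repressor of the family, fell by 1.66 ± 0.30 (edgeR adjusted p = 0.00342), and E2f6 rose by 0.47 ± 0.12 (0.0285, lost under 8 of 19 alternatives, among them without NC replicate 1, 3 or 4 or DN replicate 4). Of 22 tested E2F target genes, 6 fell and 0 rose, at a median of -0.46 against 0.01 over all tested genes. Mcm6, a subunit of the replicative helicase, fell from 30.5 ± 2.67 to 15.04 ± 1.44 CPM, by 1.02 ± 0.13 on the log2 scale (edgeR adjusted p = 2.02e-04). Cdc6, which loads that helicase, fell by 1.45 ± 0.32 (0.0126), and no alternative lost either call. Rrm2, a subunit of ribonucleotide reductase, fell by 1.40 ± 0.33 (0.0175), a call lost without NC replicate 4. In DN+NaB against NC 10 of the 22 fell and 1 rose, at a median of -0.79. Of 11 tested leukocyte markers 3 fell, 0 rose and 8 were not called in DN against NC by edgeR, and 9 fell and 0 rose in DN+NaB against NC. From DN to DN+NaB edgeR called 1 of the 11 lower, Cd5 (0.0114% of all tested genes), 7 had an unadjusted p under 0.05 and DESeq2 called 3. Cd5 had 25 to 40 counts in DN and 1 to 5 in DN+NaB. It passed the filter only through NC and DN, where it was higher, so its call is not used as support. That call was lost under 11 of 18 alternatives. The sum over 12 leukocyte markers was between 146 and 177 CPM in NC, 73.5 and 127 with DN, and 68.3 and 79.6 with DN+NaB, with no marker at 0 in a whole group. Csf1r, a macrophage receptor gene, made up most of that sum, at 111, 59.2 and 59.7 CPM on average in NC, DN and DN+NaB. The part of leukocyte RNA in the values of E2f2 and its targets was not tested.

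Of 18 tested Eph receptors and ephrins other than Ephb2, 3 fell and 0 rose in DN against NC, at a median of -0.17. Ephb1 fell by 1.14 ± 0.25 (edgeR adjusted p = 0.00994), and no alternative lost the call. Epha4 fell by 0.83 ± 0.22 (0.0319) and Ephb6 by 0.91 ± 0.25 (0.0370), calls lost under 8 and 7 of 19 alternatives. Both were lost without NC replicate 2, 3 or 4 or DN replicate 1, 2 or 3, Epha4 also without NC replicate 1 and Ephb6 also without DN+NaB replicate 3. With NC as reference, 4 fell and 0 rose in DN+NaB, at a median of -0.16.

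Of 11 tested genes of phosphate and pyrophosphate handling other than Alpl, 1 fell and 0 rose in DN against NC, at a median of 0.14. Nt5e, the ecto-enzyme that makes adenosine from AMP, fell by 0.99 ± 0.20, from 81.8 ± 15.4 to 41.3 ± 12.2 CPM (edgeR adjusted p = 0.00625, lost under no alternative). Of 22 tested Arf GTPase-activating proteins other than Asap3, 2 rose and 2 fell, at a median of -0.02. Adap1 rose by 0.71 ± 0.12 (edgeR adjusted p = 0.00245, lost under no alternative), while Asap2, a close relative of Asap3, fell by 0.48 ± 0.13 (0.0345, lost under 8 of 19 alternatives, among them without NC replicate 1, 3 or 4, DN replicate 1 or 2, or DN+NaB replicate 4). Of 12 tested UBX domain proteins and p97 itself, 0 were called in DN against NC by edgeR (1 at an unadjusted p under 0.05, 0 by DESeq2), where Ubxn10 was higher. Of 6 tested M band and giant sarcomere genes other than Myom3, 0 were called (0 at an unadjusted p under 0.05, 0 by DESeq2), at a median of -0.27.

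**Figure D4:**
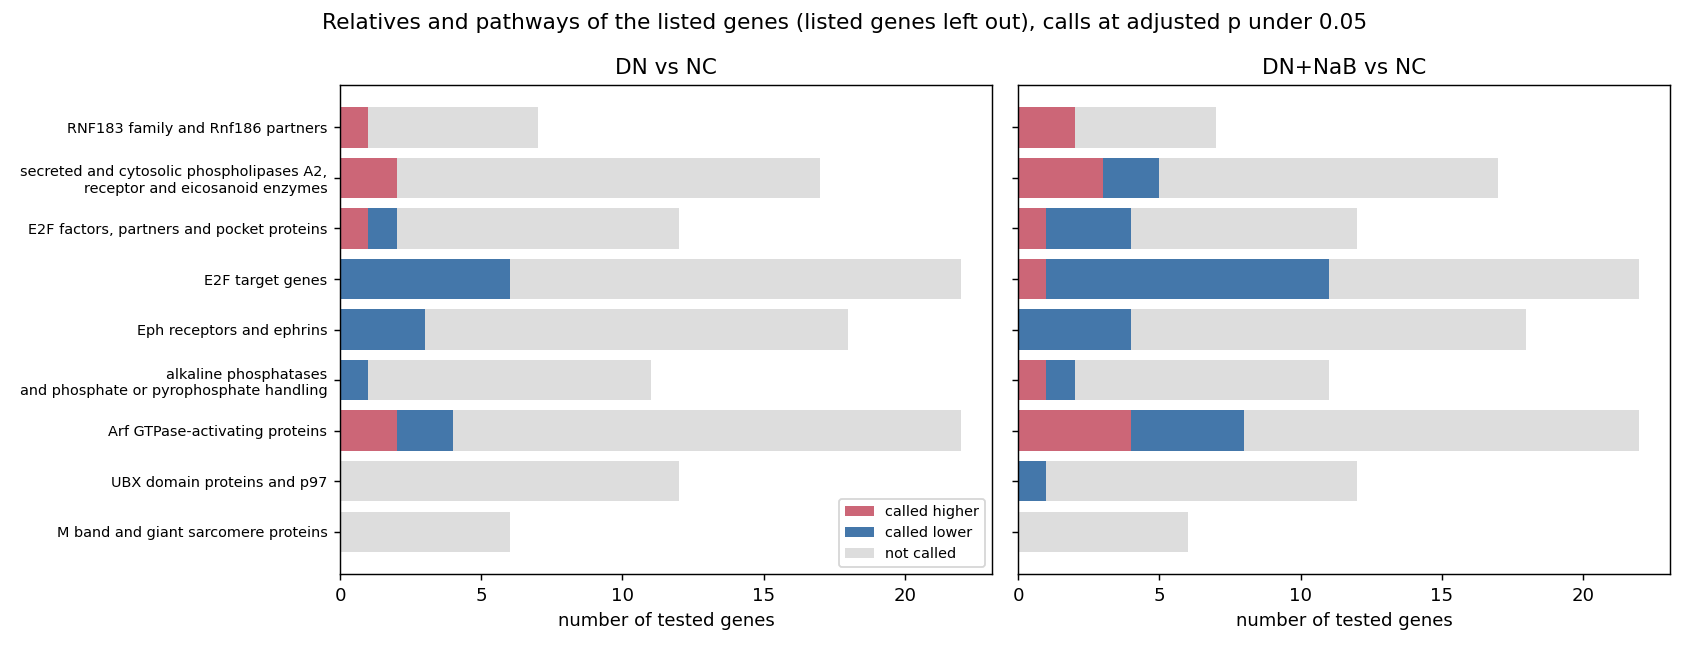
Number of tested genes (horizontal axis) called higher, called lower or not called in each list of relatives and pathway partners (vertical axis), the 10 listed genes left out, for DN against NC on the left and DN+NaB against NC on the right. E2F target genes held 6 lower and 0 higher calls in DN and 10 lower and 1 higher in DN+NaB. Of all tested genes 4.42% were called lower and 3.82% higher in DN, and 8.94% and 6.62% in DN+NaB.

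Markers of nephron segments were counted in the same libraries. Of all tested genes 3.82% were called higher and 4.42% lower in DN against NC, and 6.62% and 8.94% in DN+NaB against NC. Of 8 markers of the last segment of the proximal tubule (S3) 6 fell and 1 rose in DN against NC by edgeR, and 7 fell and 1 rose in DN+NaB against NC. The 8 genes added up to between 5710 and 7252 CPM in NC libraries, 2878 and 4561 with DN, and 2761 and 3643 with DN+NaB. Markers of the thick ascending limb and distal tubule (7 genes) added up to 8470 to 14252, 6351 to 8293 and 6917 to 8482 CPM in the same order, and of these 1 rose, 2 fell and 4 were not called in DN against NC. Umod, the most abundant of them, fell from 5983 to 3384 CPM on average (edgeR adjusted p = 0.0201, lost without NC replicate 1 or 3 or DN replicate 1 or 2), and Pvalb rose from 21.8 to 139 CPM (3.88e-05, lost under no alternative). Those of the earlier proximal tubule (10 genes) ran over 23065 to 26674, 20295 to 32923 and 27592 to 36005 CPM, and 2 of them rose and 0 fell in DN against NC. Collecting duct markers (8 genes) ran over 466 to 949, 527 to 760 and 523 to 822 CPM, and podocyte and endothelial markers (8 genes) over 910 to 1024, 809 to 1028 and 994 to 1149 CPM. In each of these last lists, of collecting duct and of podocyte and endothelial markers, 1 of 8 fell and 0 rose in DN against NC. In DN+NaB against NC 4 of the 10 earlier proximal tubule markers rose and 0 fell. Of the 7 thick ascending limb and distal tubule markers 1 rose and 3 fell in that comparison. There 0 collecting duct markers were called (1 at an unadjusted p under 0.05, 0 by DESeq2), and 1 podocyte or endothelial marker rose and 1 fell. No marker of these 5 lists was at 0 in a whole group. The part of segment make-up in the values of the 10 genes was not tested.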

How the data were processed

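RNA-seq counts came from 12 libraries. The authors deposited 1 table of raw counts by gene symbol. HISAT2 2.0.4 appears in the submitters' processing notes. What counted the reads, whether by strand, and with which annotation and build is not given in the sources used here. Groups were taken from the sample labels.

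Genes were filtered with filterByExpr, libraries scaled with TMM factors, and all 12 libraries entered 1 quasi-likelihood fit with group as the only term (edgeR 4.0.16, R 4.3.3). Tests are two-sided, and a call needs a Benjamini-Hochberg adjusted p under 0.05. Log2 CPM used a prior count of 2. Gene order and promoters came from RefSeq (GRCm38.p6), which matched 16391 of 17530 tested symbols, and exon lengths from GENCODE M21. The scripts were checked on simulated counts.

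The members and lists were chosen with earlier results of these data known. Genes were named by rule: the 10 listed genes, called genes in or beside the stretch in DN against NC or DN+NaB against DN, up to 4 per list by smallest p in DN against NC, and the 5 most and 5 least like Rnf186. List genes called from DN to DN+NaB were also named. Otud3, Sh2d5, Gm42333 as a match to Rnf186, the untested phospholipases and the neighbours called in DN+NaB against NC were named after their values were seen. Alternatives were RLE factors, library size alone, a filter of 1 CPM in 4 libraries, no filter, DESeq2 1.42.0, fits of 2 groups, a replicate block, and leaving out each library.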

Additional observations from a re-analysis of the deposited data

Results flagged for a closer look

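In NC, Pla2g2c was at 0.964 CPM in replicate 1 and at 0.371 to 0.407 CPM in the other 3 libraries. Its gap to the nearest library was 0.941 of the range of the group, above Dixon's critical value for 4 samples. Over the 10 genes and 3 groups 30 such sets of 4 were examined, and chance gives such a gap in about 1 of 20.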

How the results depend on the processing

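No called value of the 10 genes changed sign, and each log2 fold change of the 10 kept its sign under all alternatives except that of Myom3 from DN to DN+NaB, which kept it in 16 of 18 (the filter of 1 CPM dropped Myom3). Of 567 values of the 10 genes under alternatives, 563 moved by less than 1 SE.

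From DN to DN+NaB the 4 calls over the whole table became 22 with RLE factors, 26 with library size alone, 17 with the filter of 1 CPM, 27 with no filter, 257 with DESeq2 and 0 in the fit of the 2 groups alone. In the stretch the 1 call became 2, 2, 2, 2, 4 and 0 in that order. Leaving out each library gave 0 to 67 calls over the whole table, the highest without DN replicate 3, and 0 to 2 in the stretch.

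In DN against NC leaving out each library gave 942 (without NC replicate 1) to 1976 (without DN replicate 4) calls against 1443, and 7 (without NC replicate 3) to 14 in the stretch against 12. In DN+NaB against NC it gave 1833 to 3716 against 2729, and 11 (without DN+NaB replicate 2) to 22 in the stretch against 19. With library size alone the split in DN against NC was 503 higher and 1103 lower instead of 669 and 774, and in DN+NaB against NC 875 and 2070 instead of 1161 and 1568, with the median of all genes at -0.08 and -0.12 instead of 0.01 and -0.01. The cause was not tested.

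With the replicate number as a block, 1416 genes were called in DN against NC, 7 from DN to DN+NaB and 2891 in DN+NaB against NC, and in the stretch 11, 1 and 20. Deviations from the group means correlated at -0.25 to 0.27 between same-numbered samples of different groups. The labels do not say what a replicate number shares, and these correlations cannot settle whether the numbers pair the samples. The block lost the call of Rnf186 from DN to DN+NaB (1.07) and of Myom3 in DN against NC (-1.35), and gained that of Pla2g5 from DN to DN+NaB (1.16).

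Among other named genes 212 values lost a call, 48 gained one and 4031 stayed on the same side. Low counts limit Pla2g2c, Myom3 and Gm42333.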
